A study of Mus musculus with 6 samples.

Results

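The integrated stress response was followed through 10 named genes: Atf4, Atf5, Ddit3, Ddit4, Trib3, Asns, Chac1, Sesn2, Cebpb and Cebpg. Members were found by gene name in the authors' deposited comparison table, which held 9 of the 10, and their raw read counts were taken by Ensembl identifier from the deposited count table of 46078 genes. Trib3 had no row in the comparison table, and its counts were taken through its GENCODE identifier. The samples were epithelial cell fractions washed from the colon of mice 2 months old, kept under naive conditions. Wild type and Lingo3-/- mice, which lack Lingo3 on both alleles, gave 3 libraries each. The common protocol lists EDTA and DTT in the wash, but only the label of wild type replicate 1 names DTT, as described below. How the allele was made, in which cells it is deleted and whether the mice were littermates were not found in the labels. The labels also name no animal for a library, and the p-values therefore speak only of the spread between libraries, which may be technical.

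In this pathway a set of kinases that sense amino acid shortage, misfolded protein in the endoplasmic reticulum, double-stranded RNA or haem shortage all phosphorylate the initiation factor eIF2. General translation then slows, while the mRNA of the transcription factor ATF4 is translated more, because short upstream reading frames in its leader no longer hold ribosomes back. ATF4 and its partners turn on genes for amino acid synthesis and import, for the aminoacyl-tRNA synthetases and, under lasting stress, for growth arrest and cell death. Since ATF4 is set mainly by translation, the level of its mRNA alone does not report its activity, and its target genes carry more of the information in RNA-seq.

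In the Lingo3-/- libraries 1 of the 9 tested genes rose and 1 fell. Asns, the enzyme that makes asparagine, was 1.59-fold higher (95% interval 1.34 to 1.89), and Chac1, which degrades glutathione, was at 0.509 of the wild type level (0.327 to 0.793). The other 7 did not pass the test, and Trib3 was too low to be tested. Across all 16856 genes tested 15.4% were called, 9.43% higher and 5.97% lower, by edgeR's quasi-likelihood test at a Benjamini-Hochberg adjusted p under 0.05. The 9 members had a median log2 fold change of -0.05, against -0.03 for all genes tested. The count of 2 in 9 is thus close to the background, and the members did not move in 1 direction.

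Counts over genes ran from 25010618 to 28029583 in the wild type and from 11868000 to 17200931 in the Lingo3-/- libraries. Mitochondrial transcripts took 45.25 to 48.44% of them in wild type and 34.65 to 36.28% in Lingo3-/-, so that the scaling between libraries matters (2-sided exact permutation p = 0.1 for depth and for this share, the smallest that 3 against 3 can give). Levels below are CPM (counts scaled to a common library total) on library sizes scaled with TMM factors, and fold changes are Lingo3-/- minus wild type on the log2 scale. The targeted gene Lingo3 had 3, 3 and 1 counts in wild type and 2, 0 and 1 in Lingo3-/-, at or under the floor of 3 counts in every library, so it does not check the labels. Summed over 12 colon epithelial markers the level was 7670 to 7900 CPM in wild type and 8260 to 10400 CPM in Lingo3-/-, so the labelled tissue was present in all 6 libraries. Across all genes tested 5.97% were called lower in Lingo3-/-. In the Lingo3-/- libraries 13 of 15 T cell and intraepithelial lymphocyte markers, 5 of 10 B cell and plasma cell markers and 7 of 15 genes of the immediate early and heat shock response were called lower, with none higher in these lists. Leaving out single libraries moved these counts to 12 to 15, 1 to 7 and 2 to 7, with 1 B cell marker left without Lingo3-/- replicate 2 or 3, 3 without wild type replicate 2 or 3, and 2 immediate early or heat shock genes left without Lingo3-/- replicate 2 and 4 without wild type replicate 2 or Lingo3-/- replicate 3. Summed, these lists ran from 470 to 553, 69.3 to 129 and 989 to 1600 CPM in wild type and from 185 to 306, 45.6 to 48.2 and 523 to 727 CPM in Lingo3-/-. Of the other markers, 2 of 11 macrophage and dendritic cell genes (146 to 217 CPM in wild type, 97.5 to 303 in Lingo3-/-), 1 of 10 fibroblast genes (457 to 1280 and 299 to 614) and 3 of 8 tested smooth muscle and endothelial genes (24.2 to 30.9 and 19.0 to 20.6) were lower and none higher. These counts moved with single libraries. Of the 11 macrophage and dendritic cell genes 5 had a positive log2 fold change, and 3 were called higher without Lingo3-/- replicate 2. No marker was listed at 0 in every library. The part of these cells in the results below was not tested, and in these bulk samples fewer cells of a type and less RNA per cell cannot be told apart.

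**Figure D1:**
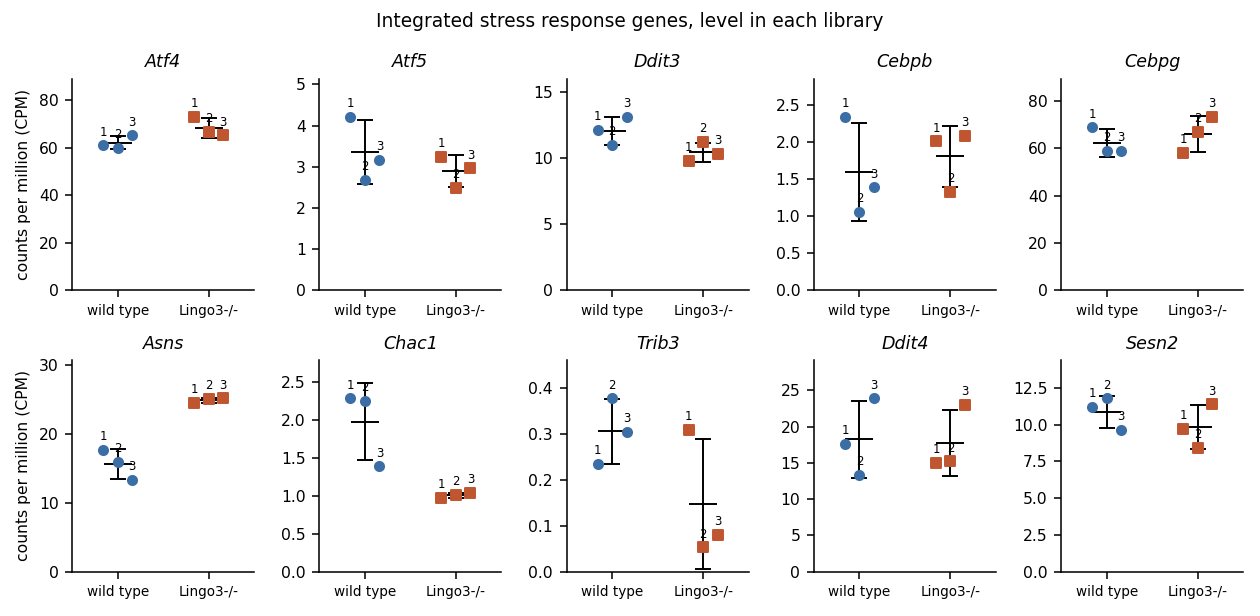
Level of each of the 10 genes in CPM (vertical axes, starting at 0) in the 3 wild type libraries (blue circles) and the 3 Lingo3-/- libraries (orange squares), numbered by replicate, with the mean and SD in black. The groups are separated for Asns, where all Lingo3-/- libraries lie at 24.4 CPM or more, and for Chac1, where they lie at 1.04 CPM or less. Such separation was seen in 2 of the 9 tested genes, beside 35.6% of all genes tested.

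Corrected for exon length, the 10 mRNAs spanned a wide range of levels. In wild type Atf4 was the most abundant at 26.3 ± 1.19 CPM per kb (SD, n = 3). It was followed by Cebpg (11.1 ± 1.02), Ddit4 (10.4 ± 3.03), Ddit3 (7.05 ± 0.610) and Asns (5.71 ± 0.803), all in CPM per kb with SD. In this run each neighbour lay within the summed SDs of the next. Sesn2 (3.13 ± 0.312 CPM per kb) stood below them, and Atf5 (1.68 ± 0.392), Chac1 (1.21 ± 0.314) and Cebpb (1.06 ± 0.443) formed a low group whose neighbours did not differ beyond their SDs. Trib3 was last at 0.143 ± 0.0337 CPM per kb. In Lingo3-/- Atf4 was again the highest, at 28.9 ± 1.73 CPM per kb, and Asns, at 9.08 ± 0.137, stood above Ddit3, at 6.09 ± 0.415 (SD, n = 3).

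Atf4, the central transcription factor of the response, lies on chromosome 15 from 80255184 to 80257541 on the plus strand of GRCm38. It had 60.9, 60.0 and 65.2 CPM in wild type replicates 1, 2 and 3 and 72.9, 66.7 and 65.2 CPM in Lingo3-/- replicates 1, 2 and 3. The groups met at 65.2 CPM, and 2 of 3 Lingo3-/- libraries lay above all wild type libraries. The log2 fold change was 0.14 ± 0.09 (SE, edgeR adjusted p = 0.323), with a 95% interval of -0.06 to 0.34, so a change of Atf4 mRNA larger than 1.26-fold upward lay outside the interval. With library totals in place of TMM factors, a scaling that moved the median of all genes from -0.03 to 0.26, Atf4 passed at 0.42. Under that scaling 34.6% of all genes were called and the members called were Asns, Atf4 and Cebpg.

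Ddit3 encodes CHOP, the transcription factor linked to cell death under lasting stress. It had 12.1, 11.0 and 13.1 CPM in wild type and 9.78, 11.2 and 10.3 CPM in Lingo3-/-. Wild type replicates 1 and 3 lay above every Lingo3-/- library, and replicate 2 lay among them. The log2 fold change was -0.21 ± 0.13 (SE, edgeR adjusted p = 0.275, 95% interval -0.48 to 0.06), and it turned to 0.08 with library totals. Exons of Ddit3 overlap Mars (68 bp) and Gm4189 (13 bp) on the other strand. On its own strand 105 bp are shared with a second gene entry also named Ddit3. The strand setting of the counting was not found, so reads of an opposite-strand pair cannot be told apart, here and for Atf5, Cebpb and Cebpg.

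Atf5, a relative of ATF4 linked to mitochondrial protein stress, had 4.21, 2.68 and 3.17 CPM in wild type and 3.24, 2.49 and 2.96 CPM in Lingo3-/-. Wild type replicate 1 was the highest library, and the rest overlapped. The log2 fold change was -0.20 ± 0.23 (SE, edgeR adjusted p = 0.582), and 0.01 without that library. Its exons overlap Nup62 and Il4i1 on the other strand.

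The C/EBP proteins CEBPB and CEBPG pair with ATF4 on DNA. Cebpg had 68.8, 59.0 and 58.8 CPM in wild type and 58.1, 66.8 and 73.2 CPM in Lingo3-/-, and the log2 fold change was 0.09 ± 0.11 (SE, edgeR adjusted p = 0.627). Its highest and its lowest library were both Lingo3-/-. Exons of Cebpg overlap Gm44836 on the same strand (73 bp) and Gm45095 on the other (4 bp). Cebpb had 2.34, 1.06 and 1.39 CPM in wild type and 2.01, 1.33 and 2.08 CPM in Lingo3-/-, resting on 25 to 50 counts per library. Its SD was 41.8% of the mean in wild type, the highest of the 9 tested genes, and the 95% interval of its log2 fold change of 0.18 ran from -0.54 to 0.91. Cebpb also shares exon sequence with Tmem189 on the other strand.

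Asns, asparagine synthetase, is a standard ATF4 target that occupies positions 7675169 to 7693254 of chromosome 6, minus strand. Wild type libraries held 377, 422 and 306 reads of it and Lingo3-/- libraries 474, 471 and 314, although those libraries were shallower. That was 17.6, 15.9 and 13.3 CPM against 24.4, 25.0 and 25.1 CPM. All 3 Lingo3-/- libraries lay above all 3 wild type libraries, as was the case without overlap in either direction for 35.6% of all genes tested, and they differed among themselves by an SD of 1.51% of their mean. On the log2 scale Asns rose by 0.67 ± 0.12 (SE, edgeR adjusted p = 0.00403), and it passed in each of the 6 fits that left out 1 library, where it ran from 0.58 to 0.79 (highest adjusted p = 0.0249). The authors' deposited table gives 0.69 with an adjusted p of 0.000264 by DESeq2, from the same libraries.

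Chac1, an ATF4 target that cleaves glutathione in the cytosol, lies on chromosome 2 from 119351229 to 119354381 on the plus strand. It was covered by 49, 60 and 32 reads in wild type and by 19, 19 and 13 in Lingo3-/-. In CPM this was 2.29, 2.26 and 1.39 against 0.978, 1.01 and 1.04, and the groups did not overlap. Groups without overlap were found in 2 of the 9 tested members and in 35.6% of all genes tested. The 3 Lingo3-/- libraries agreed closely, while wild type replicate 3 lay nearer to them than to the other 2 wild type libraries. The log2 fold change was -0.97 ± 0.29 (SE, edgeR adjusted p = 0.0436), just past the threshold. The call was lost without wild type replicate 1 or 2 or without any 1 of the Lingo3-/- replicates (highest adjusted p = 0.15), with DESeq2 (0.0806), with limma-voom (0.0649) and with library totals (0.0999). The estimate itself stayed between -1.16 and -0.84 in the fits that left out 1 library. In the authors' deposited table its log2 fold change is -0.96 and its adjusted p by DESeq2 is 0.0743.

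The label of wild type replicate 1 names DTT beside EDTA in the wash, at 5 mM EDTA and 2.5 mM DTT, while the labels of the other 5 name EDTA alone and the common protocol lists both agents for all 6. DTT reduces disulfide bonds and is a laboratory inducer of stress in the endoplasmic reticulum, so that library matters here. Of the 10 genes, replicate 1 was the highest wild type library for Atf5, Asns, Chac1, Cebpb and Cebpg, and for Chac1 it stood level with wild type replicate 2. Without it the log2 fold change was 0.79 for Asns (edgeR adjusted p = 0.00281) and -0.84 for Chac1 (0.114). Asns was then the only member called. In the lists described below, the IRE1 and ATF6 branch genes that rose went from 4 to 8 of 17 without this library (median 0.33 to 0.44). Those that rose went from 16 to 15 among other ATF4 and CHOP targets, 5 to 4 for eIF2 control and 6 to 5 for the mitochondrial list. Whether the wash differed, and its part in these values, was not tested.

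Trib3, a pseudokinase induced by ATF4 and CHOP that dampens their output, was covered by 5, 10 and 7 reads in wild type and 6, 1 and 1 in Lingo3-/-. Summed, 22 and 8 counts gave a ratio of 0.508 (Lingo3-/- to wild type) with a 95% exact interval of 0.196 to 1.19, which covers counting error only. At this depth no difference could be detected.

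The last 2 genes restrain the growth kinase mTORC1. Ddit4, also known as REDD1, had 17.6, 13.3 and 23.9 CPM in wild type and 15, 15.2 and 23.0 CPM in Lingo3-/-. Replicate 3 was the highest library in both genotypes, and the groups overlapped throughout (log2 fold change -0.05 ± 0.25 SE, edgeR adjusted p = 0.910). The 95% interval of -0.65 to 0.55 is wide enough to hold a change of 1.46-fold upward. Sesn2, a leucine sensor, had 11.2, 11.8 and 9.67 CPM in wild type and 9.73, 8.43 and 11.4 CPM in Lingo3-/-, and the log2 fold change was -0.15 ± 0.14 (SE, edgeR adjusted p = 0.497).

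**Figure D2:**
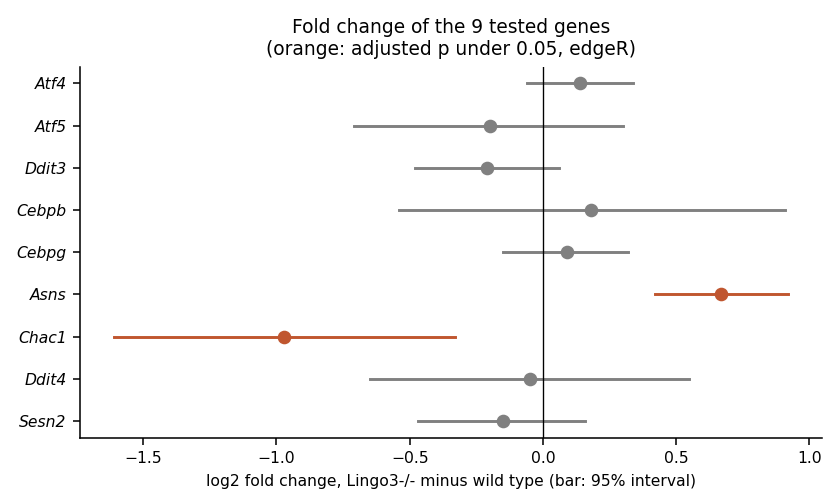
Log2 fold change (horizontal axis, Lingo3-/- minus wild type) of the 9 tested genes, as a point with its 95% interval, orange where the adjusted p was under 0.05. The intervals of Asns (0.42 to 0.92) and Chac1 (-1.61 to -0.33) lie on opposite sides of 0, and those of the other 7 genes include 0.

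The 3 genes whose log2 CPM over the 6 libraries was most like that of Atf4, among 8275 genes with a mean of at least 10 CPM, were Urb1 (Pearson r 0.978), Hbb-bs (0.971) and Nvl (0.965). For Ddit3 they were Plekhg3 (0.989), Sema6d (0.986) and Gsdmd (0.983). These are descriptions over 6 libraries that share genotype, depth and composition differences.

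The letters TGATGNAA are the core of the C/EBP-ATF response element, to which ATF4 binds with a C/EBP partner. They were searched on both strands in RefSeq promoter windows of build GRCm38.p6 that reach from 250 bases before to 50 bases after each start of transcription. Of 32851 windows 3.97% held them, and of 27025 genes with a window 4.51% had a match in at least 1. Of the 10 members 3 had a match: Asns, Chac1 and Trib3. The 2 members that passed the test, in opposite directions, are therefore both among the 3 with a match. The 250 bases before the start are shown for these 2 genes, on the strand of the gene, with the match in capitals. The Asns stretch is chr6:7693210-7693459 on the minus strand, with the match beginning 23 bases before the start, and the Chac1 stretch is chr2:119350992-119351241 on the plus strand, with the match 193 bases before the start and read on the opposite strand. Starts here are those of RefSeq. For both genes they lie inside the GENCODE bounds given above, so part of each stretch, and the Asns match, fall within those bounds.
Asns: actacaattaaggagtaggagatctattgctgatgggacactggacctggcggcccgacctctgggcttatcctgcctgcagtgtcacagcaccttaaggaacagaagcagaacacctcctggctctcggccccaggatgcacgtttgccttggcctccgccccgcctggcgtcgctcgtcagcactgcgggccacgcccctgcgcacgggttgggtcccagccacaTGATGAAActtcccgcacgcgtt
Chac1: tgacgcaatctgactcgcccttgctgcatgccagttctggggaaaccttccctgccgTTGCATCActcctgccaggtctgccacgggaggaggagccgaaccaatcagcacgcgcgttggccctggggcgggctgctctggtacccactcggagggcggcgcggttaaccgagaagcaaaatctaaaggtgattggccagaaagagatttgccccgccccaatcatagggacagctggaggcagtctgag

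The matched letters are compared below in 24 bases around each match, turned so that the core reads TGATGNAA, for the 3 members and for the 7 genes with a match that rose among the other ATF4 and CHOP targets described next. For Asns, Chac1 and Trib3 these are chr6:7693217-7693240, chr2:119351041-119351064 and chr2:152344031-152344054. The Trib3 match begins 14 bases after the RefSeq start and lies upstream of the GENCODE start.
Asns: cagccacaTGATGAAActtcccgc
Chac1: ggcaggagTGATGCAAcggcaggg
Trib3: cgcccggcTGATGTAAacctgagc
Slc7a11: catgtggcTGATGCAAacctggag
Slc7a11: ctgcatgaTGATGCAAattctcca
Slc1a4: gctggagaTGATGCAAcgcaggag
Pck2: taagatacTGATGTAActttgaag
Tars: taaccagcTGATGCAAcgggactc
Vldlr: aggagcgcTGATGCAActattgct
Gars: ccggtgcaTGATGAAAtagcgcag
Iars: tctggaggTGATGCAAtactgaca

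The variable base of the core was A in Asns and Gars, T in Trib3 and Pck2, and C in Chac1 and the rest. A match is a description of these letters and no evidence of binding. The members and the other target genes were listed as genes of this response, so their shares of matches are no independent result. Of the 40 other target genes with a window 15 held a match (37.5%, beside 4.51% of all genes). Of the 14 of these that were tested 7 rose and none fell, and of the 25 tested without a match 6 rose and 3 fell. Across all genes tested 9.43% were called higher and 5.97% lower. Whether a match goes with a rise was not tested. Of the 7 with a match that rose, Slc1a4 alone kept its call in each fit that left out 1 library. In the whole list 6 genes did so. Matches were also in the windows of Atf3, Aars, Fgf21, Got1, Jdp2, Nupr1, Pycr1 and Yars, which did not pass or were too low to test, and, outside that list, of Eif2s3x, which rose, and Herpud1.

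**Figure D3:**
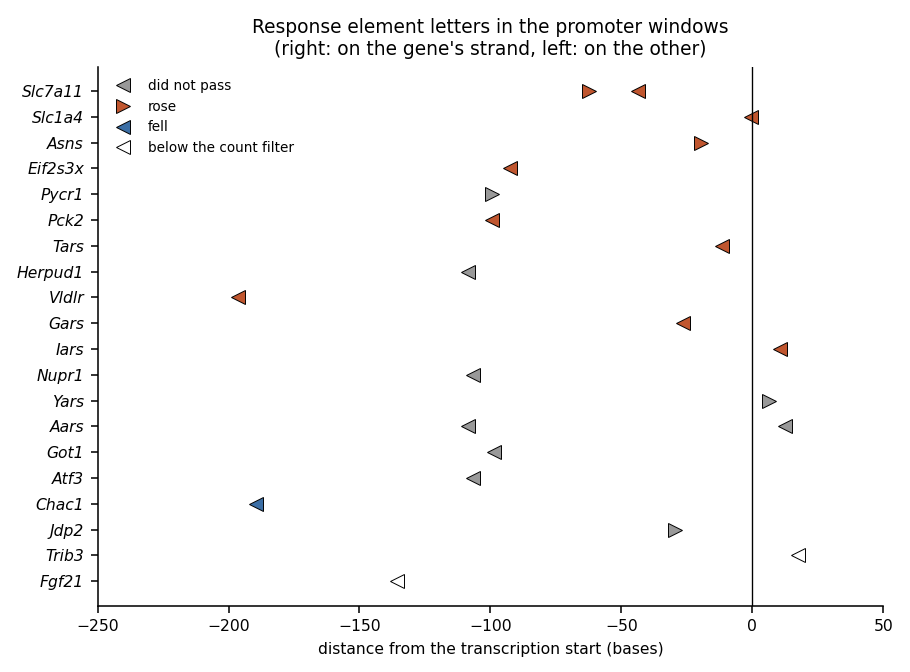
Position of each match to TGATGNAA (triangles, pointing right on the strand of the gene and left on the other) by distance in bases from the RefSeq start of transcription, for every listed gene with a match, ordered by log2 fold change. Orange genes rose, blue fell, grey did not pass and white were below the count filter; Chac1 is the single blue one.

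Other target genes of ATF4 and CHOP rose more often than they fell. This list and those below were chosen with earlier results of these data known, so their counts are descriptions. Of 49 tested, 16 rose, 3 fell and 30 did not pass (median log2 fold change 0.26, against -0.03 for all genes), beside the 9.43% of all genes called higher and 5.97% called lower. Slc1a4, a transporter of neutral amino acids, had 21.3, 25.5 and 19.4 CPM in wild type and 45.1, 39.9 and 36.1 CPM in Lingo3-/-, with no overlap (0.87 ± 0.12 SE on the log2 scale, edgeR adjusted p = 0.00187). The secreted glycoprotein gene Stc2 rose by 0.63, the tRNA export factor gene Xpot by 0.49, the transsulfuration enzyme gene Cth by 0.50, and the tRNA synthetase genes Wars and Eprs by 0.46 and 0.43, all on the log2 scale. These 6 kept their call in each fit that left out 1 library.

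The 3 targets that fell were Gdf15, Vegfa and Gadd45a. Gdf15, a stress-induced hormone that lowers food intake, had 2.15, 2.87 and 2.30 CPM in wild type and 1.08, 0.743 and 1.36 CPM in Lingo3-/- (log2 fold change -1.23 ± 0.29 SE, edgeR adjusted p = 0.0152). The angiogenic factor gene Vegfa fell by 0.49 and the growth arrest gene Gadd45a by 0.42 on the log2 scale. All 3 lost the call without single libraries, Gdf15 without wild type replicate 2 or Lingo3-/- replicate 2. Atf3, a transcription factor that also answers many other stimuli as an immediate early gene, had 56.6, 67.6 and 86.3 CPM in wild type and 59.7, 29.4 and 40.2 CPM in Lingo3-/-, and did not pass (-0.70 ± 0.29 SE, edgeR adjusted p = 0.173). Atf3 was called lower with DESeq2 (-0.69, DESeq2 adjusted p = 0.0114) and without Lingo3-/- replicate 1 (-1.01, edgeR adjusted p = 0.0189), and in no other setting. Of this list 8 genes rose and none fell without Lingo3-/- replicate 2, 8 rose and 1 fell without Lingo3-/- replicate 3, and 10 rose and 1 fell without wild type replicate 3. With library totals 35 rose and 1 fell.

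Among 18 genes for the eIF2 kinases and the control of eIF2, 5 rose, 2 fell and 11 did not pass (median 0.12). Of all genes tested 9.43% were called higher and 5.97% lower (median -0.03). The 4 kinases did not pass. Eif2ak3, which encodes PERK of the endoplasmic reticulum, had 0.21 ± 0.09, Eif2ak2, the kinase PKR that senses double-stranded RNA, 0.26 ± 0.12, Eif2ak1, the haem-regulated kinase, -0.02 ± 0.10, and Eif2ak4, the amino acid sensor GCN2, 0.00 ± 0.10 (log2 fold change with SE, lowest edgeR adjusted p = 0.145). The sign for Eif2ak1 and Eif2ak4 changed with the scaling. Of the 5 genes for eIF2B, the exchange factor that reloads eIF2 with GTP, 3 rose. Eif2b1 had 22.1, 25.0 and 21.2 CPM in wild type and 34.3, 40.0 and 42.7 CPM in Lingo3-/- (0.77 ± 0.11 SE, edgeR adjusted p = 0.00191), and Eif2b5 and Eif2b4 rose by 0.44 and 0.43, while Eif2b2 (0.00) and Eif2b3 (0.42) did not pass. The eIF2 gamma subunit gene Eif2s3x rose by 0.57, and Dnajc3, a chaperone gene whose product inhibits PERK, by 0.42. Of these 5, Eif2b1 and Eif2s3x kept their call without any single library.

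The 2 genes that fell in this list were Ppp1r15a and Impact. Ppp1r15a, or GADD34, directs the phosphatase that takes the phosphate off eIF2 and is induced by ATF4, by CHOP and by many acute stimuli. It had 15.4, 12.7 and 17.7 CPM in wild type and 10.9, 6.58 and 9.28 CPM in Lingo3-/-, without overlap (-0.77 ± 0.19 SE, edgeR adjusted p = 0.0208), beside the 7 immediate early and heat shock genes called lower; their part in this result was not tested. Impact, an inhibitor of GCN2, had 15.1, 18.3 and 15.7 CPM against 11.6, 10.3 and 11.3 CPM (-0.57 ± 0.12 SE, edgeR adjusted p = 0.00990). Ppp1r15b, which encodes the constitutive counterpart of GADD34 and directs the same phosphatase on its own, had 0.04 ± 0.09 (SE, edgeR adjusted p = 0.815). The call of Ppp1r15a was lost without wild type replicate 3 or Lingo3-/- replicate 3, and that of Impact without wild type replicate 2. The number that rose was 3 without wild type replicate 2 or Lingo3-/- replicate 3 and 2 without Lingo3-/- replicate 2, and with library totals 10 rose and none fell.

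Mitochondrial stress reaches this pathway through the protease OMA1 and the relay protein DELE1. Of 9 tested genes for this relay and for mitochondrial chaperones and proteases, 6 rose, none fell and 3 did not pass (median 0.41). Beside them, 9.43% of all genes were called higher and 5.97% lower (median -0.03). Hspd1, the chaperonin HSP60, had 63.9, 60.1 and 57.9 CPM in wild type and 109, 136 and 139 CPM in Lingo3-/- (1.07 ± 0.11 SE, edgeR adjusted p = 0.000785). Hspa9, the matrix HSP70, rose by 0.97, Trap1 by 0.62, Dele1 by 0.48, and the protease genes Lonp1 and Clpp by 0.41 and 0.40. Of these, Hspd1, Hspa9, Trap1 and Dele1 kept their call without any single library. Oma1 itself, the protease gene of the relay, did not pass, and neither did Hspe1 and Yme1l1.

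For the IRE1 and ATF6 branches of the unfolded protein response, 4 of 17 genes rose and none fell (median 0.33). Across all genes 9.43% were called higher and 5.97% lower (median -0.03). The 4 that rose were Dnajb11 (0.48), the HSP90 of the endoplasmic reticulum Hsp90b1 (0.51), the disulfide isomerase gene Pdia4 (0.67) and the sensor gene Ern1 (0.32). Dnajb11 kept its call in every fit that left out 1 library, Hsp90b1 and Pdia4 lost it without Lingo3-/- replicate 3, and Ern1 lost it in all 6. Hspa5, which encodes the chaperone BiP, and Xbp1, the target of IRE1 splicing, had 0.29 ± 0.16 and 0.35 ± 0.12 (SE, edgeR adjusted p = 0.248 and 0.0601). The number that rose was 8 without wild type replicate 1 or with DESeq2, 11 without a filter, 1 without Lingo3-/- replicate 3 and 16 with library totals.

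A last list held relatives of the members by family or symbol together with the mTOR pathway genes Tsc1, Tsc2 and Deptor, and 1 of its 15 tested genes was called, beside 15.4% of all genes. That gene, Cebpz, rose by 0.39 (edgeR adjusted p = 0.0240), a call lost without single libraries. Despite its symbol it encodes a CCAAT-binding protein of ribosome biogenesis and not a C/EBP factor of the leucine zipper type. Trib1 and Trib2 had -0.49 and -0.38, Sesn1 and Sesn3 had -0.05 and -0.24, and Chac2, the constitutive relative of Chac1, had 0.27, all on the log2 scale and none past the threshold.

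**Figure D4:**
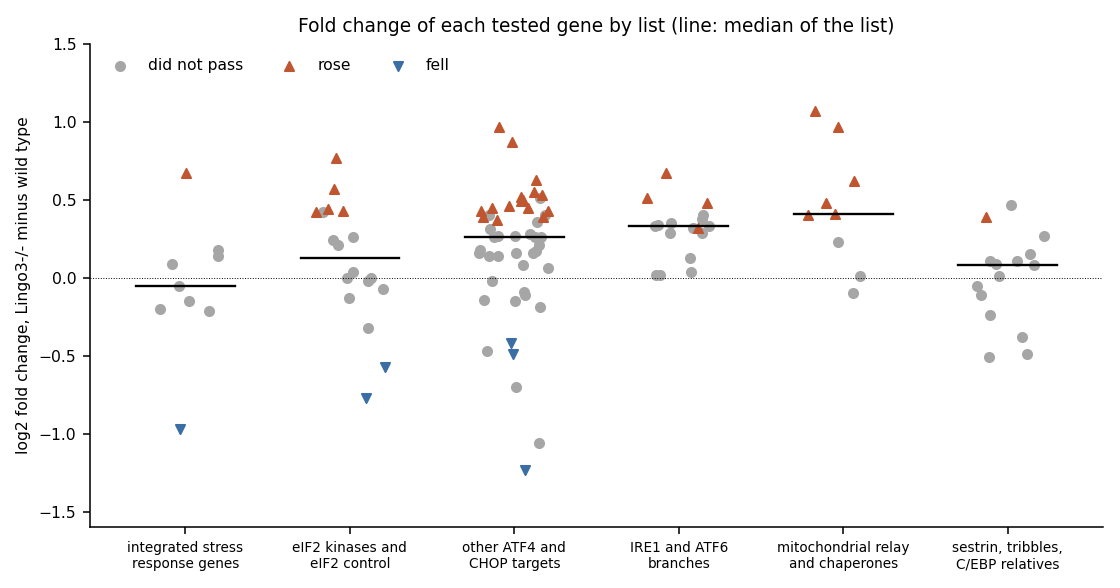
Log2 fold change (vertical axis, Lingo3-/- minus wild type) of every tested gene of the 6 lists, 1 point per gene, with upward orange triangles for genes that rose, downward blue ones for genes that fell and grey circles for those that did not pass; lines are list medians. The members have a median of -0.05, and the mitochondrial list has the highest median, at 0.41.

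**Figure D5:**
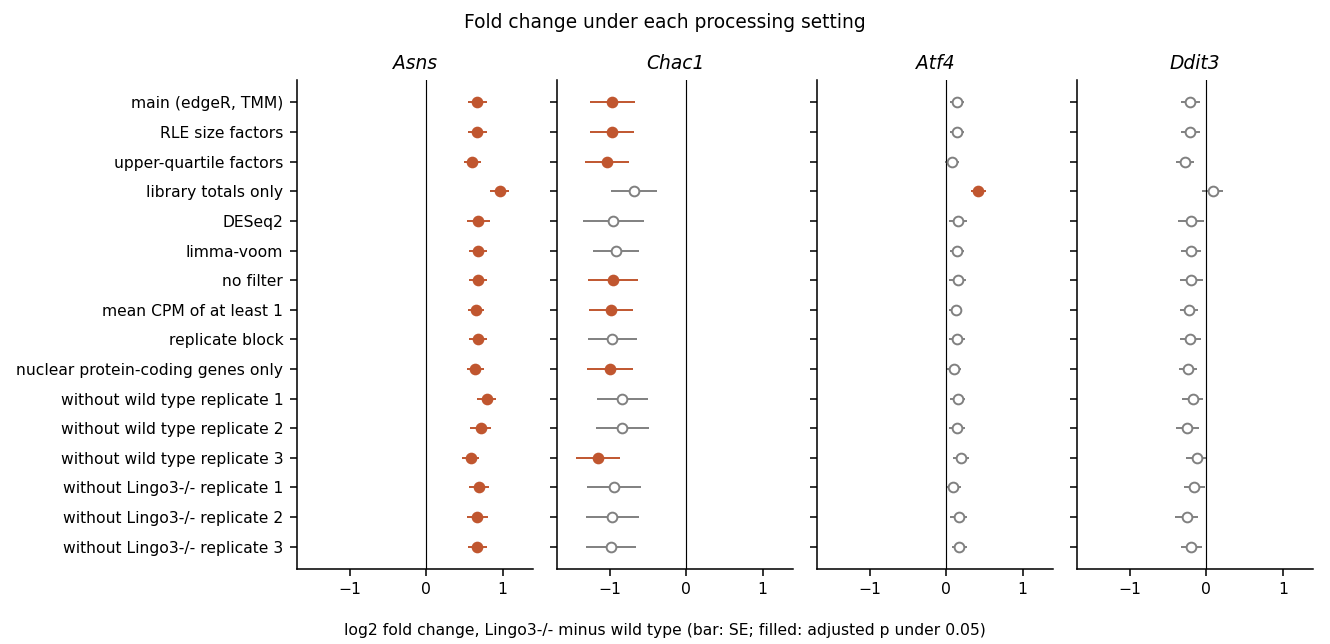
Log2 fold change with SE (horizontal axes) of Asns, Chac1, Atf4 and Ddit3 with the processing used here (top) and under 15 other settings, filled where the adjusted p was under 0.05. Asns is filled throughout, Chac1 loses its call in 9 of the 15, and Atf4 passes with library totals only.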

How the data were processed

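RNA was sequenced from 6 libraries, 3 per genotype. Per the submitters' processing notes, reads were handled with Trimmomatic 0.39, STAR, HTSeq and DESeq2 on build GRCm38. Their other versions, the strand setting and the annotation release were not found. In the deposited count table the values are the authors' raw HTSeq counts per gene, without normalisation. Per the file headers, the authors' comparison table holds DESeq2 log2 fold changes with standard errors, p-values, a test score and size-factor scaled values. These deposited signal columns and the score were not used.

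The HTSeq summary lines were left out. Genes were kept by filterByExpr (minimum count 10, minimum total 15), scaled with TMM and tested with edgeR 4.0.16 (robust quasi-likelihood, genotype as the only term, 2-sided, Benjamini-Hochberg over 16856 genes, threshold 0.05) in R 4.3.3. SE is the fold change over the root of F, and intervals use its degrees of freedom. Alternatives used limma 3.58.1, DESeq2 1.42.0, other scalings and filters, and each library left out. Exon lengths and gene types came from GENCODE M21, which held 98.2% of identifiers, and promoters from RefSeq (96 of 121 listed genes had a window).

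Members and lists were chosen with earlier results of these data known. Named were all 10 members, the kinases and phosphatase subunits of eIF2, Atf3, Hspa5, Xbp1, the 3 genes most like Atf4 and Ddit3, and per pathway list up to 6 called genes in each direction by adjusted p. Other genes with a promoter match were named after their values were seen. So were the eIF2B subunits, mitochondrial list genes and relatives that did not pass, and those in the closing section.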

Additional observations from a re-analysis of the deposited data

How the results depend on the processing

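With 2 members called by edgeR, 1 was called with DESeq2, with limma-voom and with the replicate number as a replicate block, and 1 to 2 without single libraries; Asns passed in all of these fits. Library totals only also gave 3, but with Chac1 replaced by Atf4 and Cebpg. The 2596 genes changed became 5835 with library totals only, 3942 at an adjusted p under 0.1 and 1124 to 2686 without single libraries. The share of calls that were higher was 61.2%, but 45.4% with upper-quartile factors and 92.8% with library totals only. The 37 called genes of the pathway lists became 75 with library totals only and 18 to 37 without single libraries. With library totals only the log2 fold change turned to 0.09 for Atf5, 0.08 for Ddit3, 0.23 for Ddit4, 0.13 for Sesn2 and 0.26 for Eif2ak1. Eif2ak4 turned to -0.06 and Ppp1r15b to -0.03 with upper-quartile factors, and Eif2ak4 to -0.01 with a mean CPM of at least 1 and -0.03 with nuclear protein-coding genes only. Without single libraries Atf5 ran from -0.32 to 0.01, Cebpb from -0.03 to 0.57, Ddit4 from -0.27 to 0.20, Eif2ak1 from -0.09 to 0.06 and Eif2ak4 from -0.06 to 0.09. None of these passed in those fits. The cause of each change was not tested. Of 704 values of 44 single genes under the alternatives, 603 kept direction and side of the threshold, 68 lost the call, 14 gained it and 19 changed sign.

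Same-numbered libraries did not deviate together (r of -0.0102, -0.117 and -0.103 across genes), and no library correlated best with its own number. No pairing by number was thus seen, but with 3 libraries per genotype this cannot exclude one. With the replicate block 2061 genes changed, and Chac1 had -0.97 with an edgeR adjusted p of 0.0659. Depth limits Trib3, Chac1 and Cebpb most, since 3 counts correspond to 0.113 to 0.240 CPM.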

Other observations

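The other ATF4 and CHOP targets were also divided by what their products do, a division made after their values were seen. All 12 aminoacyl-tRNA synthetase genes had a positive log2 fold change (0.08 to 0.46), and 6 rose, namely Wars, Eprs, Nars, Tars, Gars and Iars. These values are from the main fit, where the median of all genes was -0.03 and 9.43% of all genes were called higher. With upper-quartile factors the median of the whole target list moved from 0.26 to 0.19, and that of all genes to -0.09. With library totals only the median of all genes was 0.26, so under that scaling a positive sign alone says little. The transsulfuration genes Cth and Cbs, which make cysteine from homocysteine, both rose (0.50 and 0.55). Of 8 tested amino acid transporter genes 2 rose, Slc1a4 (0.87) and the cystine importer Slc7a11 (0.97, with 2.18 ± 0.466 CPM in wild type and 4.29 ± 1.02 in Lingo3-/-, SD, n = 3). Of 7 genes for serine synthesis and one-carbon units, Shmt2 rose (0.53) and 6 did not pass, among them Psat1 (-0.02), Phgdh (0.17) and Psph (-0.14). The 2 genes for proline synthesis, Aldh18a1 and Pycr1, did not pass (0.31 to 0.51). Nars, Tars, Gars, Iars, Cbs, Shmt2 and Slc7a11 each lost their call without some single library.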
